A study of Mus musculus with 22 samples.

Results

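The clustered protocadherin genes were taken as the RefSeq genes of mouse chromosome 18 (GRCm38/mm10) whose symbols carry the Pcdha, Pcdhb or Pcdhg stem followed by a number, or by a, b or c and a number. The rule found 58 genes, all with a curated transcript, among the 26182 genes with one. They fell into 14 Pcdhα genes (chr18:36930285-37188897), 22 Pcdhβ genes (chr18:37264998-37521419) and 22 Pcdhγ genes (chr18:37661775-37841873), all on the plus strand. Read-through genes that start at the first exons of Pcdha4, Pcdha6 and Pcdha7 (Gm37013, Gm38666 and Gm38667) do not carry these symbols and were not counted as members. No measured value entered the choice of members.

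ATRX, H3K9me3 and G4 ChIP-seq and ATAC-seq were performed in mouse embryonic stem (ES) cells 12 h after nucleofection of locked nucleic acid (LNA) gapmers. These were directed against TERRA (TERRA KD) or were scramble gapmers (scramble KD). TERRA is an RNA of telomeric repeats, transcribed from subtelomeric regions toward the chromosome ends. All samples came from a single female ES line on a CAST/Ei x 129/Sv/Jae hybrid background, grown on feeder fibroblasts and moved to feeder-free dishes before transfection. Each assay had 2 replicates per condition, giving 16 peak lists. The 6 input samples entered only as the control of the authors' ChIP peak calling. TERRA itself cannot be read from peak lists, so the knockdown was not checked here, and although the study calls its replicates biological, the labels do not say whether they were separate cultures, so the p-values cover only the spread between these samples.

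Clustered protocadherins are cadherin-type adhesion proteins of the cell surface that give neurons a molecular identity and mediate self-recognition of their branches. Each Pcdhα and Pcdhγ gene has its own promoter and a long variable first exon, which encodes the extracellular part and is spliced to constant exons shared by its cluster. Pcdhβ genes consist of their own exon and use no constant exons. The C-type genes (Pcdhac1, Pcdhac2, Pcdhgc3, Pcdhgc4 and Pcdhgc5) are regulated apart from the alternate isoforms, whose promoters are chosen at random in each neuron with the help of CTCF and cohesin. H3K9me3, a histone mark of heterochromatin, is known to help silence this locus, and ATRX is a chromatin remodeler that binds heterochromatin and G-quadruplexes (G4), four-stranded structures of guanine-rich DNA recognised here by the BG4 antibody.

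First exons of the members were 2340 to 5271 bp long (median 2590), whereas the median over all genes was 201 bp. A longer exon is overlapped by a peak more easily, so the 443 other genes with a first exon of at least 2340 bp are given beside all genes as a description. In 9 members the annotated transcript starts at the coding start (Pcdha1, Pcdha8 to Pcdha12, Pcdhac1, Pcdhb1 and Pcdhb8), so that the true start may lie upstream of the transcription start site (TSS) used here. Library depth was 5435286 to 13898785 tags for H3K9me3, 4104486 to 15506154 for ATRX, 2961038 to 24588605 for G4 and 5976014 to 7883648 for ATAC. An ATAC peak lay within 1 kb of the TSS of 7 or 8 of 8 ES cell markers in every list, of 3 or 4 of 6 fibroblast feeder markers and of 4 of 6 neuron markers, so open chromatin at a TSS did not separate the cell types sharply. Postn and Lum, genes of the feeder list, had no ATAC peak in any list, and the neuronal genes Rbfox3 and Neurod2 had none either.

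**Figure D1:**
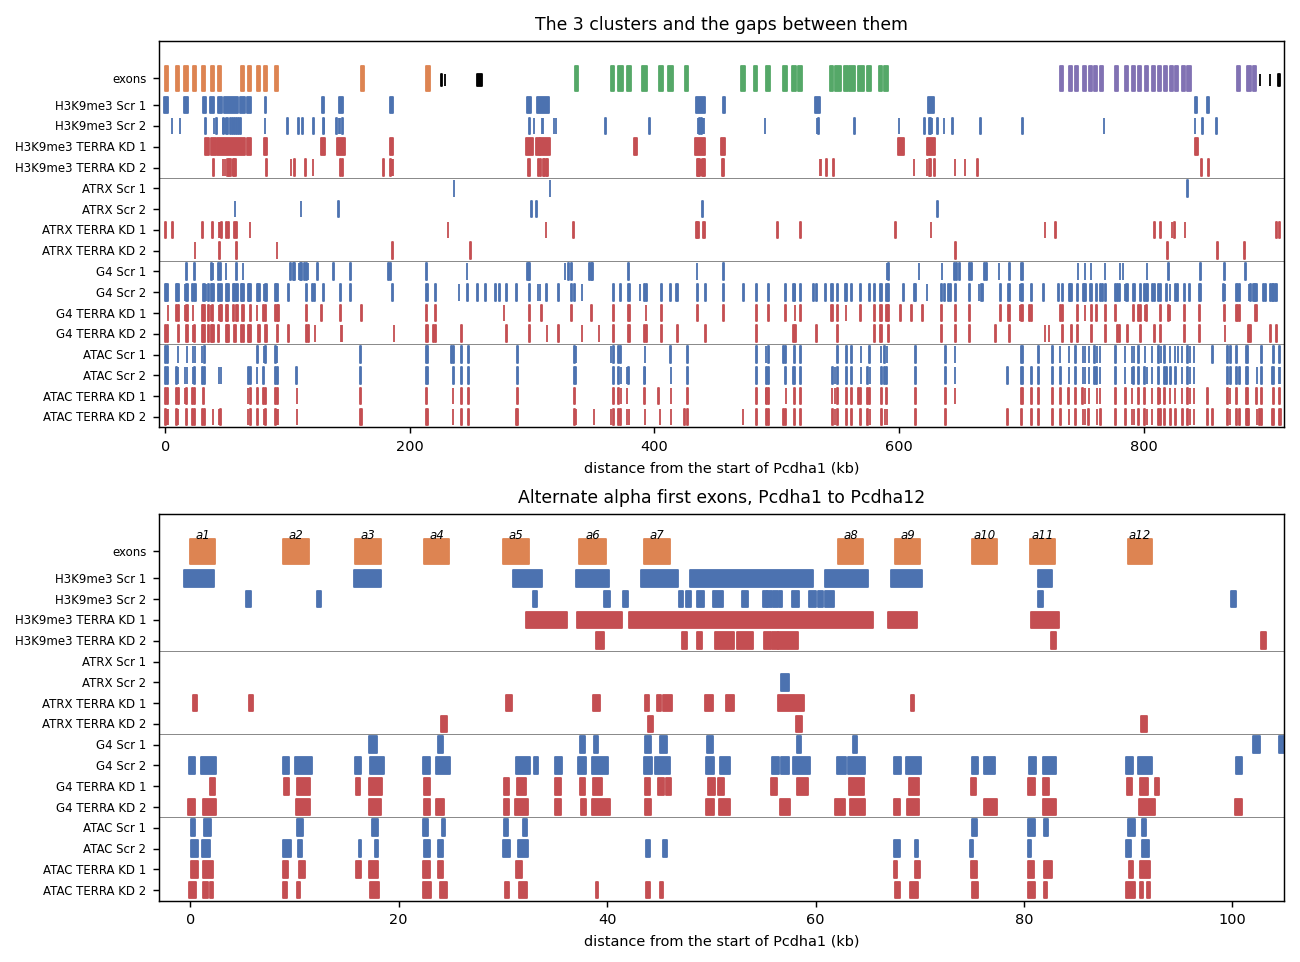
Peaks in each of the 16 lists along the 3 clusters (top) and along the alternate Pcdhα first exons (bottom), by distance from the start of Pcdha1 in kb. Boxes in the exon row are first exons (orange alpha, green beta, purple gamma) and constant exons (black), blue bars are scramble KD (Scr) peaks and red bars TERRA KD peaks. In both replicate 1 lists H3K9me3 fills most of the stretch from Pcdha5 to Pcdha9, which holds 2 and 6 ATAC peaks in the scramble KD lists and 3 and 7 after TERRA KD.

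H3K9me3 lay over Pcdhα and almost nowhere else among the members. In scramble KD 8 and 2 of 14 Pcdhα first exons (replicates 1 and 2) were overlapped by a peak, and after TERRA KD 6 and 2. No Pcdhγ first exon was overlapped in any list, and of the Pcdhβ genes only Pcdhb18 (scramble KD replicate 2) and Pcdhb15 (TERRA KD replicate 2) were touched, over 9.47% and 0.93% of the exon. Across all 58 members the share was 13.8% and 5.17% in scramble KD and 10.3% and 5.17% after TERRA KD, beside 1.34%, 0.695%, 1.27% and 0.791% of all genes in the same lists. Of the other long first exons 4.06% to 5.64% carried a peak.

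The heaviest H3K9me3 cover was a block from Pcdha5 to Pcdha9. Peaks covered 70.6% of this stretch (chr18:36960276 to the end of the Pcdha9 first exon) in scramble KD replicate 1 and 85.8% of it in the matching TERRA KD list, but 22.3% and 20.4% in replicate 2. The first exons of Pcdha6, Pcdha7 and Pcdha8 were covered over 100% of their length in both replicate 1 lists. In replicate 2 Pcdha6 was covered over 7.28% (scramble KD) and 28.4% (TERRA KD), and Pcdha7 and Pcdha8 had no peak over the exon. Pcdha6 and Pcdha11 were the members with an H3K9me3 peak in all 4 lists. The Pcdha11 exon was covered over 56.2% and 20.4% in scramble KD and 96.2% and 14.3% after TERRA KD. Its peaks were weak in every list, with a −log10 p of 2.45 and 2.28 in scramble KD and 2.44 and 2.43 after TERRA KD. Peaks were called from a −log10 p of 2. Pcdha1 and Pcdha3 had a peak only in scramble KD replicate 1, over 96.1% and 100% of the exon, with a −log10 p of 4.47 and 3.29. In that list the peaks over Pcdhα first exons ranged in −log10 p from 2.45 to 18.2, with a median of 4.91, so both were below the median.

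A single peak of 23367 bp (chr18:36972419-36995785, 1167 tags, −log10 p 24.2) joined Pcdha7 and Pcdha8 in TERRA KD replicate 1. Scramble KD replicate 1 held separate peaks over the same exons, with −log10 p 12.3 and 18.2, and a peak of 11881 bp between them (chr18:36978212-36990092), 64.1% of which is soft-masked as repeat in the reference. The part between the Pcdha7 and Pcdha8 first exons lies within introns of the upstream Pcdhα genes, which run on to the constant exons. In replicate 2 this part still carried 13 short peaks in scramble KD and 7 after TERRA KD, which covered 45.7% and 46.1% of it. Thus the part between the 2 first exons was marked in all 4 lists, while the exons to either side were covered in replicate 1 alone. The replicates differ in depth and in caller behaviour: replicate 1 had 12090614 and 13898785 tags against inputs of 3366921 and 3374834, with a median peak of 2404 and 3120 bp, and replicate 2 had 5942692 and 5435286 tags against inputs of 19735093 and 28622103, with a median peak of 491 and 515 bp. The part of depth in the difference between replicates was not tested.

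Elsewhere H3K9me3 sat mostly outside first exons. The peak between Pcdhb8 and Pcdhb9 (chr18:37363897-37371313 in scramble KD replicate 1) is 99.5% soft-masked, and its counterpart in TERRA KD replicate 1 had the highest −log10 p of the locus, 42.8. Both replicate 2 lists held 6 and 8 shorter peaks in that gap. The gap between the alpha and beta clusters was covered over 17.1% and 3.37% in scramble KD and 22.2% and 6.88% after TERRA KD. Over whole clusters, H3K9me3 covered 16.8% and 6.01% (scramble KD) and 19.2% and 5.74% (TERRA KD) of Pcdhα, 2.91% to 5.12% of Pcdhβ and 0.91% to 1.73% of Pcdhγ. Of 10285 genome stretches of the same length as Pcdhα, 1.55% and 3.37% were covered at least as much in scramble KD and 2.21% and 5.11% after TERRA KD. For Pcdhγ that share was 48.1% to 56.0%, so its cover was near the middle of the genome.

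TERRA KD and scramble KD did not separate for H3K9me3. The share of first exons with a peak was 9.48% ± 6.10 (SD, n = 2) in scramble KD and 7.76% ± 3.66 after TERRA KD, a difference of −1.72 percentage points (exact permutation test, two-sided, p = 1). Cover of the 3 clusters was 6.04% ± 3.50 and 6.53% ± 4.06, a difference of 0.49 points (exact permutation p = 0.667). The spread between replicates exceeded both differences. With 2 against 2 samples the smallest p this test can give is 0.333, so no comparison here could reach 0.05. No member had an H3K9me3 peak in both replicates of a condition and in neither of the other, a pattern shown by 0.0535% of all genes toward TERRA KD and 0.0191% toward scramble KD. Within 1 kb of the TSS, 7 and 3 members carried a peak in scramble KD and 5 and 1 after TERRA KD (12.1%, 5.17%, 8.62% and 1.72%), beside 2.28%, 1.96%, 2.36% and 2.07% of all genes.

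**Figure D2:**
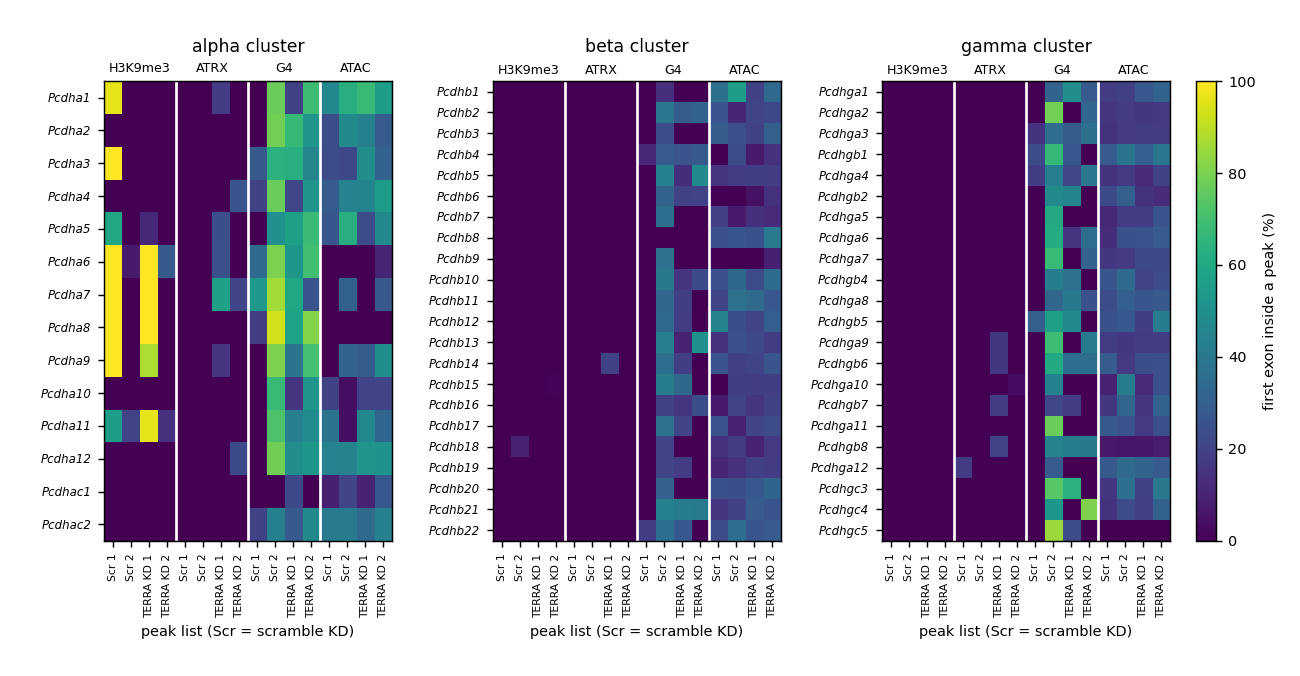
Percent of each member's first exon that lies inside a peak, for the 14 alpha, 22 beta and 22 gamma genes (rows, in genomic order) in the 16 lists (columns, grouped by assay, Scr for scramble KD). The H3K9me3 columns are filled for Pcdha6 to Pcdha8 at 100% in both replicate 1 lists and are empty for all gamma genes, and the G4 columns follow the deep scramble KD replicate 2 list.

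ATAC peaks were missing in some lists at Pcdha6 to Pcdha9, which carried H3K9me3. Pcdha8 had no ATAC peak over its first exon in any list, Pcdha6 had one in 1 list, Pcdha7 in 2 lists and Pcdha9 in 3 lists. The 6 members with H3K9me3 in both replicate 1 lists (Pcdha5, Pcdha6, Pcdha7, Pcdha8, Pcdha9 and Pcdha11) had an ATAC peak in 2 and 4 cases in scramble KD and in 3 and 5 after TERRA KD. The 6 members with H3K9me3 in neither (Pcdha2, Pcdha4, Pcdha10, Pcdha12, Pcdhac1 and Pcdhac2) had an ATAC peak in all 4 lists. Pcdha1 and Pcdha3, with H3K9me3 in 1 of the replicate 1 lists, had one in all 4 lists too. Of the 8 members with H3K9me3 in a replicate 1 list, 4 (Pcdha1, Pcdha3, Pcdha5 and Pcdha11) thus had ATAC peaks in all 4 lists. Pcdha11 had H3K9me3 in all 4 as well, with weak peaks (−log10 p of 2.28 to 2.45). Pcdha1, with H3K9me3 over 96.1% of its exon in scramble KD replicate 1, had the widest mean ATAC cover of the alpha genes (58.1%). The assays were run on different libraries of a hybrid line, and whether both marks sat on the same allele cannot be read from the lists.

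ATAC peaks were found over most members. In scramble KD 49 and 53 of 58 first exons carried a peak and after TERRA KD 53 and 56 (84.5%, 91.4%, 91.4% and 96.6%). All genes stood at 49.3%, 54.3%, 52.7% and 55.9%, and the other long first exons at 67.5%, 73.4%, 71.1% and 75.4%. Pcdhγ was the steadiest cluster, with the same 21 of 22 genes in every list. The exception, Pcdhgc5, had no ATAC peak over its exon or within 1 kb of its TSS in any list, whereas the other C-type genes Pcdhac1, Pcdhac2, Pcdhgc3 and Pcdhgc4 had one in all 4. Pcdhβ had 18 genes with a peak in the shallowest list (scramble KD replicate 1, 5976014 tags) and 22 in the deepest (TERRA KD replicate 2, 7883648 tags), and Pcdhα had 10 and 13.

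The Pcdhγ cluster as a whole held more ATAC peaks than most of the genome. Peaks covered 9.35% and 11.9% of it in scramble KD and 10.4% and 13.1% after TERRA KD, where the median of 14771 genome stretches of that length was 1.18% to 1.71%. At most 0.169% of those stretches were covered as much in any list. Pcdhα was covered over 4.35% to 6.13% and Pcdhβ over 5.18% to 7.12%, and 3.63% to 7.65% of stretches of their lengths reached those values. In Pcdhβ the peaks lay on first exons in all lists, apart from 1 peak in TERRA KD replicate 2. In Pcdhα 3 further sites downstream of Pcdhac2 had a peak in all 4 lists (chr18:37165213-37165894, chr18:37172288-37172836 and chr18:37178037-37178897, as called in TERRA KD replicate 2), and all 3 lie between the constant exons 2 and 3 of the cluster. In Pcdhγ 7 such sites recurred, among them one in the last constant exon (chr18:37840516-37842125) with a −log10 p of 20.9 and 37.4 in scramble KD and 22.5 and 24.0 after TERRA KD.

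Pcdha1, Pcdha12 and Pcdha4 had the widest ATAC cover of the alpha genes. Peaks lay over 46.1% and 62.8% of the Pcdha1 exon in scramble KD and 67.9% and 55.7% after TERRA KD. For Pcdha12 these values were 44.3% and 44.8% against 52.3% and 50.9%, and for Pcdha4 29.2% and 44.2% against 45.1% and 55.2%. The Pcdha12 and Pcdha4 values after TERRA KD were both above those of scramble KD, and the Pcdha1 values overlapped. In the beta cluster Pcdhb1, Pcdhb11 and Pcdhb12 led with a mean over the 4 lists of 36.7%, 30.1% and 29.7%. At Pcdhb1 the order was the opposite of that at Pcdha12, with 37.1% and 56.2% in scramble KD and 19.3% and 34.3% after TERRA KD. In the gamma cluster Pcdhgb1, Pcdhga12 and Pcdhgb5 led with 33.9%, 30.9% and 28.4%.

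The difference between conditions in ATAC was small. The share of first exons with a peak was 87.9% ± 4.88 (SD, n = 2) in scramble KD and 94.0% ± 3.66 after TERRA KD, a difference of 6.03 points (exact permutation p = 0.667). Cover of the clusters was 6.74% ± 1.12 and 7.54% ± 1.09, a difference of 0.81 points (exact permutation p = 0.667). In each replicate number the TERRA KD library was the deeper one, so depth and condition cannot be told apart. Pcdhb6 was the only member with a peak in both TERRA KD lists and in neither scramble KD list. Its peaks were weak and did not coincide, with a −log10 p of 3.35 at a summit 47 bp upstream of the TSS in replicate 1 (chr18:37333479-37334014) and of 3.80 at 825 bp downstream in replicate 2 (chr18:37334524-37335052). This pattern was shown by 0.829% of all genes, and the opposite one by 0.260% of all genes and by no member.

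**Figure D3:**
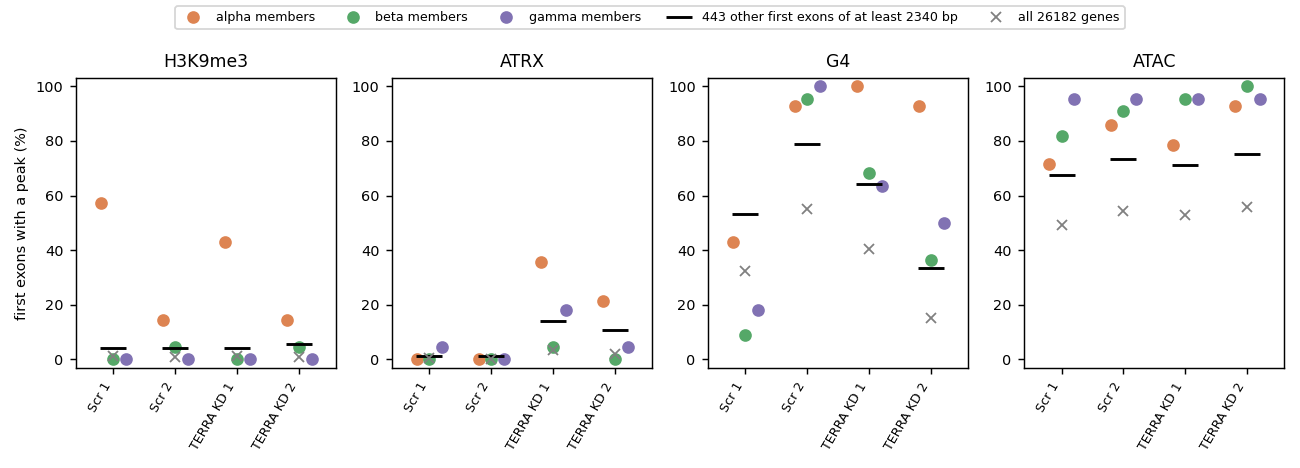
Share of first exons overlapped by a peak in each list, for alpha (orange), beta (green) and gamma (purple) members, for the 443 other genes with a first exon of at least 2340 bp (dash) and for all 26182 genes (cross). Alpha members stand above all genes for H3K9me3 in all 4 lists, and for G4 all 3 clusters are above all genes in scramble KD replicate 2 (92.9% to 100%) and below the other long exons in scramble KD replicate 1.

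ATAC summits fell at different ends of the exon in the 3 clusters. In Pcdhγ 17 to 19 of 22 genes had a summit 0 to 500 bp downstream of the TSS in each list, and the median summit within the exon was 168 to 199 bp from the TSS. In Pcdhβ 5 to 7 of 22 genes had a summit there, whereas 17 to 20 had one 1500 to 2500 bp downstream, toward the end of the coding sequence. In Pcdhα both positions were used, with 6 to 9 of 14 genes at 0 to 500 bp and 6 to 8 at 1500 to 2500 bp. Of the summits in the other long first exons, 17.6% to 19.5% lay in the downstream part beyond the exon's midpoint, compared with 13 of 23, 17 of 26, 14 of 24 and 18 of 29 in Pcdhβ (scramble KD replicates 1 and 2, then TERRA KD). Pcdhβ was sparse near the TSS. Only 6 and 7 genes in scramble KD and 8 and 11 after TERRA KD had an ATAC peak within 1 kb of it, against 21, 21, 20 and 20 Pcdhγ genes. Over all members, 60.3%, 69.0%, 65.5% and 72.4% had such a peak, close to the 59.4%, 63.5%, 62.3% and 64.2% of all genes.

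**Figure D4:**
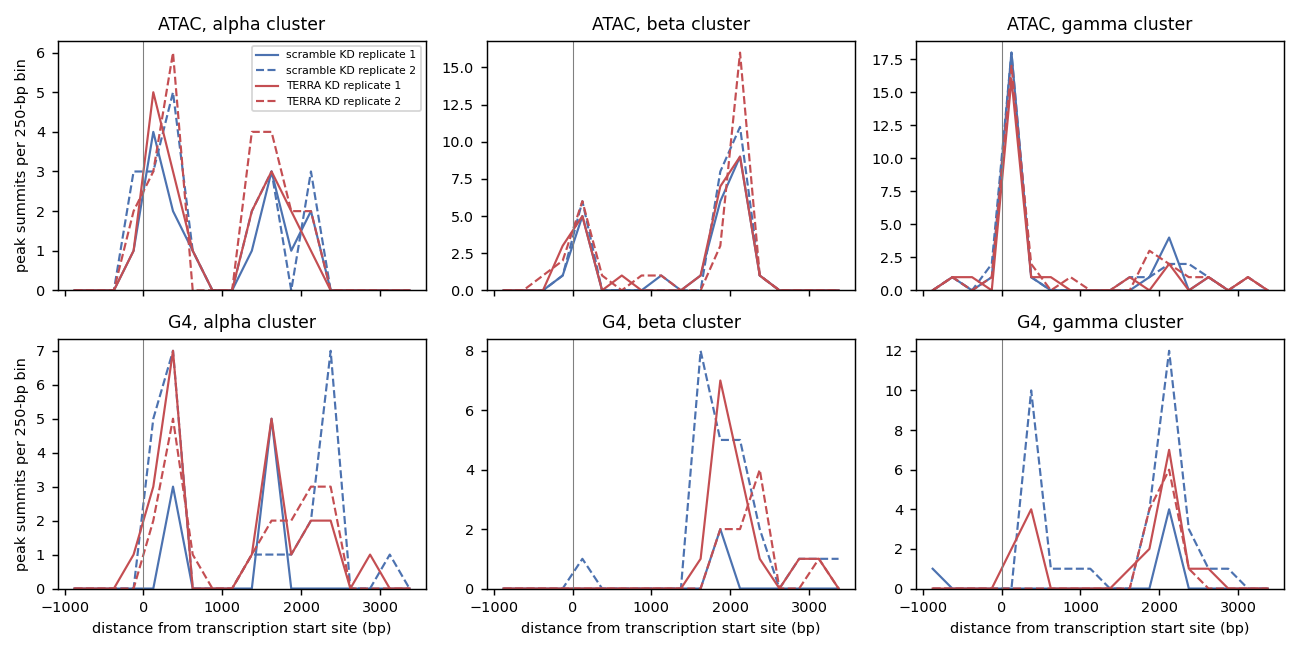
Number of peak summits per 250-bp bin by distance from the TSS for ATAC (top) and G4 (bottom) in the alpha, beta and gamma clusters, scramble KD in blue, TERRA KD in red, replicate 1 solid and replicate 2 dashed. ATAC summits gather just downstream of the TSS in gamma, about 2 kb downstream in beta, and at both places in alpha, and G4 summits of beta and gamma gather about 2 kb downstream, with a second group near the TSS in gamma (10 of 22 genes in scramble KD replicate 2, and 6 after TERRA KD in replicate 1).

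G4 peaks varied more between libraries than between conditions. In scramble KD 12 and 56 of 58 first exons carried a G4 peak and after TERRA KD 43 and 32 (20.7%, 96.6%, 74.1% and 55.2%). Those libraries had 2961038, 24588605, 5759282 and 13127555 tags. Both scramble KD lists were called against an input of 23359214 tags and both TERRA KD lists against one of 19824848. Input and condition therefore cannot be told apart for G4. The same holds for ATRX and H3K9me3, where each condition had its own input in each replicate. All genes stood at 32.3%, 55.1%, 40.5% and 15.0%, and the other long first exons at 53.3%, 79.0%, 64.1% and 33.4%. Thus the members were below all genes in scramble KD replicate 1 and above them in the other 3 lists. The shallowest and the deepest library are both scramble KD, so the means of 58.6% ± 53.6 (SD, n = 2) and 64.7% ± 13.4 rest on replicates that differ far more than the conditions do (difference 6.03 points, exact permutation p = 1). Cover of the clusters was 10.1% ± 9.13 and 8.05% ± 0.73, a difference of −2.09 points (exact permutation p = 1). No member switched between the conditions in both replicates, a pattern that 0.233% of all genes showed toward TERRA KD and 4.25% toward scramble KD.

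Pcdhα was the cluster with the most regular G4 signal. Its first exons carried a peak in 6, 13, 14 and 13 of 14 cases (scramble KD replicates 1 and 2, then TERRA KD), Pcdhβ in 2, 21, 15 and 8 of 22 and Pcdhγ in 4, 22, 14 and 11 of 22. Pcdha8, Pcdha6 and Pcdha7, which were also those with the widest H3K9me3 cover, had the widest G4 cover of the alpha genes. Peaks lay over 17.2% and 93.2% of the Pcdha8 exon in scramble KD and over 57.9% and 81.3% after TERRA KD. In TERRA KD replicate 2 the peak over Pcdha8 (chr18:36993566-36994989) had the highest −log10 p of the locus in that list, 11.7, and ranked within the top 1.73% of its 225024 peaks. Among Pcdhβ, Pcdhb21, Pcdhb5 and Pcdhb13 led with a mean cover of 31.9%, 26.1% and 25.8%, and Pcdhb8 was the only member without a G4 peak in any list. Among Pcdhγ, Pcdhgc3, Pcdhgb5 and Pcdhgc4 led with 34.4%, 33.5% and 33.4%. Pcdhgc5, which had no ATAC peak, was covered over 85.1% of its exon in the deep scramble KD replicate 2 list and over 23.3% in TERRA KD replicate 1.

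G4 peaks of the members were less frequent at the TSS than those of all genes. Within 1 kb of the TSS, 4 and 27 members had a peak in scramble KD and 17 and 9 after TERRA KD (6.90%, 46.6%, 29.3% and 15.5%), less than the 41.2%, 64.1%, 48.5% and 22.1% of all genes in each list. Pcdhα alone stood at 21.4% and 85.7% in scramble KD and 78.6% and 57.1% after TERRA KD, above all genes except in scramble KD replicate 1. Pcdhβ had 0 and 1 of 22 genes in scramble KD and 0 in both TERRA KD lists. Pcdhγ had 1 and 14 of 22 and, after TERRA KD, 6 and 1. In Pcdhγ first exons 4 of 4 and 20 of 33 G4 summits lay beyond the exon's midpoint in scramble KD, and 12 of 18 and 11 of 11 after TERRA KD. In Pcdhβ 1 of 2 and 17 of 23 did, and after TERRA KD 12 of 15 and 8 of 9. In the other long first exons that share was 20.6%, 37.0%, 28.4% and 44.9%. In scramble KD replicate 2 also 10 of 22 Pcdhγ genes had a G4 summit in the first 500 bp, and after TERRA KD 6 in replicate 1 and 0 in replicate 2. Of the ATAC peaks over member exons in scramble KD replicate 1, 7.58% overlapped a G4 peak of the same replicate number, where 48.3% of ATAC peaks over first exons of all genes did. In TERRA KD replicate 2 the order was the other way round, with 32.5% beside 10.2%. For scramble KD replicate 2 the values were 74.7% and 65.1%, and for TERRA KD replicate 1 50.7% and 56.2%. A sequence able to form a G4 (4 runs of at least 3 G with loops of up to 7 bases, on either strand) was found in 5 of 58 first exons, or 8.62%, and in 11.4% of all first exons. These shares are not matched for exon length, with a median of 2590 bp in the members and 201 bp over all genes. A longer exon has more room for such a sequence, and the share in the other long first exons was not computed.

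**Figure D5:**
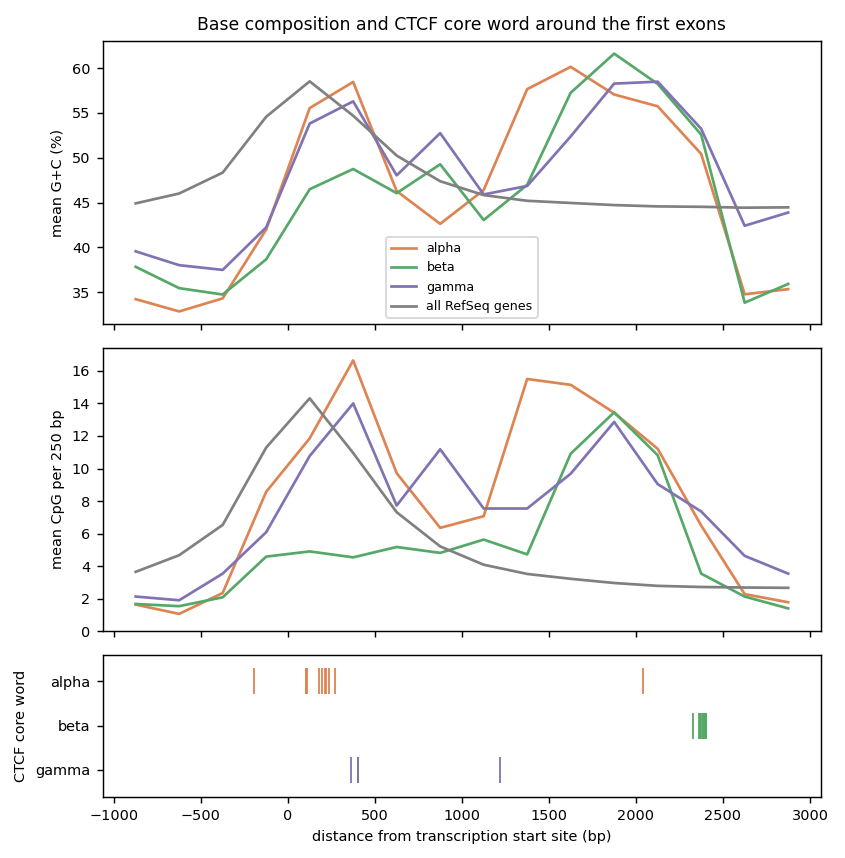
Mean G+C content and mean number of CpG per 250 bp by distance from the TSS for the alpha, beta and gamma genes and all RefSeq genes, with the positions of the CTCF core word below. G+C in all 3 clusters is high between 1500 and 2250 bp downstream of the TSS, where all genes stay below 45%, and the word sits mostly near the TSS in alpha and at 2328 to 2404 bp in beta.

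Base composition also varied along the exon. Mean G+C content of Pcdhβ was 46.5% in the 250 bp after the TSS and 61.6% at 1750 to 2000 bp, where CpG rose from 4.91 to 13.5 per 250 bp. Pcdhγ and Pcdhα had a rise at both places, with 56.3% and 58.5% G+C at 250 to 500 bp and 58.3% and 57.1% at 1750 to 2000 bp, while all genes fell from 54.7% to 44.7%. Most Pcdhβ ATAC summits, and most G4 summits of Pcdhβ and Pcdhγ, lay near this downstream G+C-rich part. By contrast, 16 to 18 Pcdhγ ATAC summits in each list lay at 0 to 250 bp, where G+C was 53.8%. In Pcdhβ 5 or 6 ATAC summits lay in that bin, where G+C was 46.5%. The part of base composition in the recovery of ATAC and G4 peaks was not tested. Identical stretches of 100 bases shared within the locus made up at most 13.6% of a first exon (Pcdha11), with a median of 0.28% over all members. The median was 5.32% in Pcdhα, 0.08% in Pcdhβ and 0% in Pcdhγ. Pcdha6, which like Pcdha11 had H3K9me3 in all 4 lists, stood at 11.1%. The part of shared sequence in the alpha peaks was not tested. A read pair that lies wholly within shared sequence cannot be assigned to a single member, and how many reads this concerns was not measured.

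A core of the CTCF motif, CCNNNAGGNGGC, was searched on both strands. In the 500 bp upstream of the TSS it was present in 1 of 14 Pcdhα genes, in no Pcdhβ or Pcdhγ gene, and in 5.01% of all genes. Words of the members downstream of the TSS lay within the first exon. The core was present within 500 bp downstream of the TSS in 10 of 14 Pcdhα genes (71.4%), in 3 of 22 Pcdhγ genes and in no Pcdhβ gene, and in 5.13% of all genes. At 2000 to 2500 bp it was present in 10 of 22 Pcdhβ genes, all between 2328 and 2404 bp from the TSS, and in 1.89% of all genes. Of the 12 words in Pcdhα, 6 and 6 lay inside an ATAC peak in scramble KD and 7 and 8 after TERRA KD. Of the 10 words in Pcdhβ these numbers were 4 and 5 against 6 and 5. A match of letters is a description of the reference, and no binding of CTCF was measured.

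ATRX peaks over the members were few and were found mainly after TERRA KD. In scramble KD 1 and 0 first exons carried an ATRX peak and after TERRA KD 10 and 4 (1.72%, 0%, 17.2% and 6.90% of 58). All genes also rose, from 0.340% and 0.180% to 3.33% and 1.86%, and so did the other long first exons, from 1.35% and 1.13% to 14.2% and 10.6%. The members as a whole stood near other exons of their length, with Pcdhα at 35.7% and 21.4% in the TERRA KD lists. The numbers of ATRX peaks in the whole lists were 7321 and 13652 in scramble KD and 41384 and 21718 after TERRA KD. Those libraries had 6606064, 15506154, 4104486 and 14878010 tags, so the list with the most peaks came from the shallowest library. Each condition also had its own input in each replicate, so input and condition cannot be told apart for ATRX. The share of first exons was 0.86% ± 1.22 (SD, n = 2) and 12.1% ± 7.31, a difference of 11.2 points with all TERRA KD values above all scramble KD values (exact permutation p = 0.333, the smallest possible). Cover of the clusters was 0.23% ± 0.17 and 1.55% ± 0.99, with a difference of 1.32 points and the same p of the exact permutation test, 0.333. Peak numbers were also made equal within each replicate number, by taking top-ranked peaks, and they still differed between the replicates. Then 1.72% and 0% of first exons had a peak in scramble KD and 1.72% and 5.17% after TERRA KD. For first exons the groups then no longer separated, and the difference was 2.59 points (exact permutation p = 0.667). For cover of the clusters they still did, with 0.11% and 0.35% in scramble KD and 1.12% and 0.55% after TERRA KD (exact permutation p = 0.333).

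Pcdhα held 7 of the 13 members with an ATRX peak in either list after TERRA KD. In replicate 1 they lay over Pcdha1, Pcdha5, Pcdha6, Pcdha7 and Pcdha9, over Pcdhb14, and over Pcdhga9, Pcdhgb6, Pcdhgb7 and Pcdhgb8. In replicate 2 they lay over Pcdha4, Pcdha7, Pcdha12 and Pcdhga10, the last over only 3.51% of its exon. Pcdha7 was the only member shared by both lists. Its exon was covered over 57.1% and 20.9% after TERRA KD and not at all in scramble KD, a pattern shown by 0.256% of all genes, and by 0.00764% of all genes and no member in the opposite direction. The Pcdha7 peaks were weak, with 5, 5 and 8 tags in replicate 1 and 10 tags in replicate 2 and a −log10 p of at most 3.15 and 2.46. In the scramble KD lists only Pcdhga12 had a peak over the first exon (replicate 1, 17.5% of the exon, −log10 p 2.57). The Pcdhb14 peak was the only one over a member exon with a −log10 p of at least 5 (5.29, 10 tags).

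In 2 of the 4 lists the strongest ATRX peaks of the locus lay between first exons, in intervals that carried H3K9me3. For TERRA KD replicate 1 these were chr18:37365057-37366400 between Pcdhb8 and Pcdhb9 (24 tags, −log10 p 11.7) and chr18:36986728-36989184 between Pcdha7 and Pcdha8 (36 tags, −log10 p 11.3). The 2 strongest peaks of scramble KD replicate 2 lay in the same intervals, at chr18:36986993-36987769 (19 tags, −log10 p 4.09) and chr18:37369295-37370013 (15 tags, −log10 p 3.13). TERRA KD replicate 2 had 1 weak peak between Pcdha7 and Pcdha8 (−log10 p 2.22) and none between Pcdhb8 and Pcdhb9, and scramble KD replicate 1 had none in either. The strongest peak of TERRA KD replicate 2 (−log10 p 3.17) reached only the downstream end of the Pcdhga10 first exon, and that of scramble KD replicate 1 (2.57) lay at Pcdhga12. Of the ATRX peaks across the clusters and their gaps, 0 of 3 and 4 of 7 in scramble KD and 13 of 30 and 3 of 10 after TERRA KD overlapped an H3K9me3 peak of the same condition and replicate number. Across the genome 21.5%, 16.3%, 30.1% and 16.9% did. ATRX and H3K9me3 of a replicate number were called against inputs of the same tag number, so a deviation of the input would enter both. Within 1 kb of the TSS, 1 and 0 members had an ATRX peak in scramble KD and 5 and 1 after TERRA KD (1.72%, 0%, 8.62% and 1.72%), beside 1.07%, 0.592%, 8.23% and 4.84% of all genes.

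Related genes outside the clusters were read in the same way, as a peak within 1 kb of the TSS. None of 12 non-clustered protocadherin genes carried H3K9me3 in any list, and 9 or 10 of them had an ATAC peak. Of all genes, 1.96% to 2.36% carried H3K9me3 in this window and 59.4% to 64.2% had an ATAC peak. A count of 0 H3K9me3 peaks in so short a list is thus near the share of all genes. ATRX was found at Pcdh9 and Pcdh10 in TERRA KD replicate 1 and at none of the 12 in the other lists. Of 19 regulators of the locus, among them Ctcf, the cohesin subunits and the H3K9 methyltransferase Setdb1, 17 or 18 had an ATAC peak and none had H3K9me3. G4 peaks lay at 12 and 15 of these regulators in scramble KD and at 14 and 1 after TERRA KD. In TERRA KD replicate 2, where 1 of the 19 regulators had a G4 peak in this window, 15.5% of members and 22.1% of all genes had one.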

How the data were processed

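Per the labels and the methods of the study, the authors trimmed reads (Trim Galore 0.5.0), aligned them to mm10 (Bowtie2 2.3.4.1), removed duplicates (SAMtools 1.9) and called peaks in each library at p 0.01, with MACS 1.4.3 (ATRX, H3K9me3) or 1.4.2 (G4) against input and MACS 2.2.7.1 (ATAC) without input, per the file headers. The deposited ChIP lists give tag counts per peak, a score (−10 times the log10 of p) and the fold over background, a ratio. The deposited ATAC lists give the pileup signal, −log10 p and fold. None is scaled between libraries, so peaks were read as present or absent, and an interval was called when at least 1 bp overlapped.

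Genes, exons and sequence came from RefSeq GRCm38, 1 transcript a gene, the curated one with the most upstream TSS. Cover is the percent of bases inside a peak. Conditions were compared over 4 samples an assay with the exact permutation test, two-sided, in Python 3.11.15 with numpy 2.4.6, and the interval counts were tested on simulated data. Members and lists were chosen with earlier results of these data known. Named members were the 3 with the widest mean cover in each assay and cluster, those that switched in both replicates, and the 5 C-type genes. Sites named outside first exons, and Pcdhα members by H3K9me3, were chosen after their values were seen. Alternatives were a −log10 p of at least 5, equal peak numbers within each replicate number, other windows, each replicate left out, and a replicate block. The 2430 peaks on unplaced sequences and on chromosomes outside the annotation set were not used. Depth limits which peaks can be called.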

Additional observations from a re-analysis of the deposited data

How the results depend on the processing

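Of 60 alternative values, 50 kept the direction of the comparison, and none could pass a threshold of 0.05, since the smallest p is 0.333 for the exact permutation test and 0.5 for the sign flip of the replicate block. For H3K9me3 first exons the difference of −1.72 points became 0 when peaks had to reach a −log10 p of 5, and ranged from −3.45 to 0 when a replicate was left out. H3K9me3 cover reversed to −1.62 points over first exons only. For G4 first exons the difference of 6.03 points reversed to −24.1 under the same p limit, to −6.03 with at least 50% of the exon covered, to −4.31 within 1 kb of the TSS and to −9.48 in the 500 bp upstream of it, and it was 53.4 without replicate 2 and −41.4 without replicate 1. G4 cover ranged from −8.03 to 3.86 points when a replicate was left out. The cause of these G4 reversals was not tested. ATAC first exons gave 0 in the 500 bp upstream of the TSS. Both ATRX differences stayed positive, but that for first exons fell from 11.2 to 2.59 points with equal peak numbers, to 0.86 at the p limit and with 50% cover, to 4.31 within 1 kb and to 1.72 upstream of the TSS, and was 6.90 and 15.5 with a replicate left out. ATRX cover fell from 1.32 to 0.61 points with equal peak numbers and 0.35 at the p limit, and was 0.51 and 2.14 with a replicate left out. The replicate block gave the same mean differences, for example 11.2 points for ATRX first exons (exact sign-flip permutation p = 0.5). With complete pairs it cannot change a mean difference, so its values among the 50 could not have changed direction. Deviations of same-numbered libraries in peak numbers per 1 Mb correlated with r = 0.29 (H3K9me3), 0.05 (ATRX), 0.56 (G4) and 0.10 (ATAC), and H3K9me3 and ATRX inputs had 3366921 and 3374834 tags in replicate 1 and 19735093 and 28622103 in replicate 2. No source used here says what a replicate number shares, and 2 pairs do not settle it, so the fit without the block was kept.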
